A study of Mus musculus with 8 samples.

Results

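The homeostatic microglia genes examined here were the 9 rows of the deposited count table named P2ry12, P2ry13, Tmem119, Cx3cr1, Sall1, Siglech, Gpr34, Olfml3 and Fcrls, of 31894 genes in all. They were chosen by symbol and not by their values, although earlier results of these data were known, and all 9 were found once. The study sorted tumor cells from breast cancer brain metastases of 4 mice (mice 57, 58, 67 and 70) into an E-cadherin high (E-cadHI) and an E-cadherin low (E-cadLO) fraction, and sequenced mRNA in bulk, which gave 8 libraries, 4 per group. Both groups carried the same alleles and treatment. The tumors came from organoids of PyMT E-cad-mCFP mammary carcinomas, in which polyoma middle T drives the tumor and E-cadherin is fused to the cyan fluorescent protein mCFP, and which had been passaged serially through the brain and labelled with the nuclear protein H2B-Dendra2. The organoids were injected into the brain of FVB hosts that the labels give as wild type, and the age of the mice is not among those labels. Both fractions were gated as live, Dendra2-positive cells, and they differed in the gate on CFP only (positive for E-cadHI and negative for E-cadLO). The host keeps its own microglia. The labels do not say that the mice received separate tumors, so the 4 mice are replicates of the host and the sort.

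Microglia are the resident macrophages of the brain. In the healthy brain they keep a surveying state that depends on TGF-beta signals, on the lineage factor PU.1 and on the zinc-finger factor Sall1, and that is recognised by surface receptors such as P2ry12, Cx3cr1 and Tmem119. Around lesions and tumors microglia are known to lower these genes and to raise others, among them Apoe, Spp1 and Itgax, while genes shared by all macrophages, such as the C1q chains, stay on. The 9 genes are known as marks of this host cell rather than of mammary tumor cells, and the comparison asks how much of their mRNA each sorted fraction held and whether the genes kept their ratios to each other.

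The 9 genes lie on 6 chromosomes of GRCm38. P2ry12 (ENSMUSG00000036353, chr3:59216272-59262871, minus strand) and P2ry13 (ENSMUSG00000036362, chr3:59207892-59210882, minus strand) are neighbours, and both lie inside Med12l on the opposite strand. Olfml3 (ENSMUSG00000027848, chr3:103722222-103738001, minus strand) and Fcrls (ENSMUSG00000015852, chr3:87250758-87263738, minus strand) are on the same chromosome. Tmem119 is ENSMUSG00000054675 (chr5:113793729-113800516, minus strand), Siglech is ENSMUSG00000051504 (chr7:55768178-55778925, plus strand) and Sall1 is ENSMUSG00000031665 (chr8:89027235-89044162, minus strand). Cx3cr1 (ENSMUSG00000052336, chr9:119901616-120069879, minus strand) has an annotated span of 168264 bases that overlaps 9 other genes. Gpr34 (ENSMUSG00000040229, chrX:13632089-13640858, plus strand) lies inside Cask on the opposite strand. All 9 are annotated as protein-coding.

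Promoters are shown for the 4 genes with an entry that moved most nearly together between libraries (P2ry12, P2ry13, Siglech and Cx3cr1), for Olfml3, which did not follow them, and for Fcrls, which carries a searched motif. They are from RefSeq on GRCm38.p6, run 5′ to 3′ on the gene's strand, and hold 250 bases before and 50 bases from the annotated start. Capitals mark the core of the site read by PU.1, GAGGAA on either strand, except in Cx3cr1, where they mark a MEF2-type motif (CTA and TAG with 4 bases of any kind between them).
P2ry12 (chr3:59262936-59263235, minus strand): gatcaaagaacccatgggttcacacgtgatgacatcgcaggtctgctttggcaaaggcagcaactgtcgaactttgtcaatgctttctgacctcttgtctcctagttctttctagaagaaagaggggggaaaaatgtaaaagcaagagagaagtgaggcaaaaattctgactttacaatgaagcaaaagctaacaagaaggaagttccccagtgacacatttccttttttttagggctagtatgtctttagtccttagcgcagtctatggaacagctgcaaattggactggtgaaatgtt
P2ry13 (chr3:59210833-59211132, minus strand): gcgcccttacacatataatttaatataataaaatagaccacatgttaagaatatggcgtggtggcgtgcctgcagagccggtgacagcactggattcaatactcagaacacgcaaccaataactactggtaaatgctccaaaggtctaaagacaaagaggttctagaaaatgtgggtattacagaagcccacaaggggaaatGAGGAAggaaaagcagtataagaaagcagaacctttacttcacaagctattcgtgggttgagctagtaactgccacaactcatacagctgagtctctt
Siglech (chr7:55767934-55768233, plus strand): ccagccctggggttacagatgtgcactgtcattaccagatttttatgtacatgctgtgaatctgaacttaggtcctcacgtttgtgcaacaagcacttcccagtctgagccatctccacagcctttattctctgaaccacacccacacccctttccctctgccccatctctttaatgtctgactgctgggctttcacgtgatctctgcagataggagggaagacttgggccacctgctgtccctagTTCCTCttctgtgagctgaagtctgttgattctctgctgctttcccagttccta
Cx3cr1 (chr9:120068247-120068546, minus strand): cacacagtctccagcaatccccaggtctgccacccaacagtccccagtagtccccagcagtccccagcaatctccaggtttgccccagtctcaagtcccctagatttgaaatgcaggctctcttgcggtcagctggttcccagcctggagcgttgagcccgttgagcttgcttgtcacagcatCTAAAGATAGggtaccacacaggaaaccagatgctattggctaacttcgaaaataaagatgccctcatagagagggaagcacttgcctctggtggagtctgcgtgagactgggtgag
Olfml3 (chr3:103737952-103738251, minus strand): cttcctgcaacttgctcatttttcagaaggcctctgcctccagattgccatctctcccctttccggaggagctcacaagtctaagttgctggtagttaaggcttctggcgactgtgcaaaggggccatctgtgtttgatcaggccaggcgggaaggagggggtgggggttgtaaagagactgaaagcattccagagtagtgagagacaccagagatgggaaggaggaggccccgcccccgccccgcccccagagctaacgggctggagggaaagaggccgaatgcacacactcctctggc
Fcrls (chr3:87263475-87263774, minus strand): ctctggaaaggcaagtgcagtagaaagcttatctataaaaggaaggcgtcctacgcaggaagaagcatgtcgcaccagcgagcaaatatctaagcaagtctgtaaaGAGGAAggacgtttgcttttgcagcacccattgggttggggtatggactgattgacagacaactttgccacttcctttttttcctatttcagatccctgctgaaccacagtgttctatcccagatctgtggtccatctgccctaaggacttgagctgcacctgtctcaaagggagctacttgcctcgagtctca

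The table of promoters held 9 entries for 7 of the 9 genes, with 3 for Sall1, and none for Tmem119 or Gpr34. GAGGAA was found in 3 of these 9 promoters (P2ry13 at position -48, Fcrls at -144, and Siglech at -4 on the opposite strand, counted from the start site), against 28.3% of all 32851 promoters of this length. The longer PU.1-type GAGGAAGT, which contains that core, was in 0 of the 9 and in 3.2% of all promoters. The MEF2-type motif was in Cx3cr1 alone, at -67, against 3.69% of all. The IRF-type motif, GAAA repeated after 2 bases of any kind (3.44% of all), and the AP-1-type TGANTCA (7.81% of all) were in none of the 9.

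The libraries held between 9102781 and 15769200 counts, so that 3 counts, the limit that a count of 0 allows, stood for 0.19 to 0.33 CPM (counts after scaling each library to a total of 1000000). Among all genes, edgeR without a block called 0 of 13598 tested genes at an adjusted p under 0.05, with 1109 higher and 790 lower in E-cadLO at an unadjusted p under 0.05, whereas DESeq2 called 376 higher and 40 lower. With the mouse as a block, edgeR called 99 genes, all higher in E-cadLO. Cdh1, which encodes the E-cadherin used for the sort, had a log2 fold change of -0.17 ± 0.33 (SE, n = 4 per group, adjusted p = 0.809 by edgeR). The noncoding transcript Gm42418 took 2.23% to 14.4% of counts, and was highest in the E-cadLO library of mouse 58.

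All 9 homeostatic genes were detected, and all 9 had a positive fitted difference, so each was estimated higher in the E-cadLO fraction. On the log2 scale of edgeR without a block the differences ran from 1.69 for Sall1 to 2.98 for Siglech, while that of Olfml3 was 0.51. The replicate spread was large. In edgeR without a block none of the 9 passed (0% of tested genes were called higher). An unadjusted p under 0.05 was reached there by 5 of the 9, beside 1109 higher and 790 lower of all 13598 tested genes. With the mouse as a block Cx3cr1 and P2ry12 rose, which is 2 of 9 against 0.728% of all tested genes called higher in that fit. In DESeq2 P2ry12, Tmem119 and Cx3cr1 rose (3 of 9 against 2.48%), and in DESeq2 with the block 6 of 9 did (against 6.77%). Levels are given as normalized CPM, which is CPM after scaling the library totals by trimmed mean of M values (TMM). In bulk RNA, a fraction with fewer microglia and a fraction whose microglia hold less of each mRNA cannot be told apart.

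**Figure D1:**
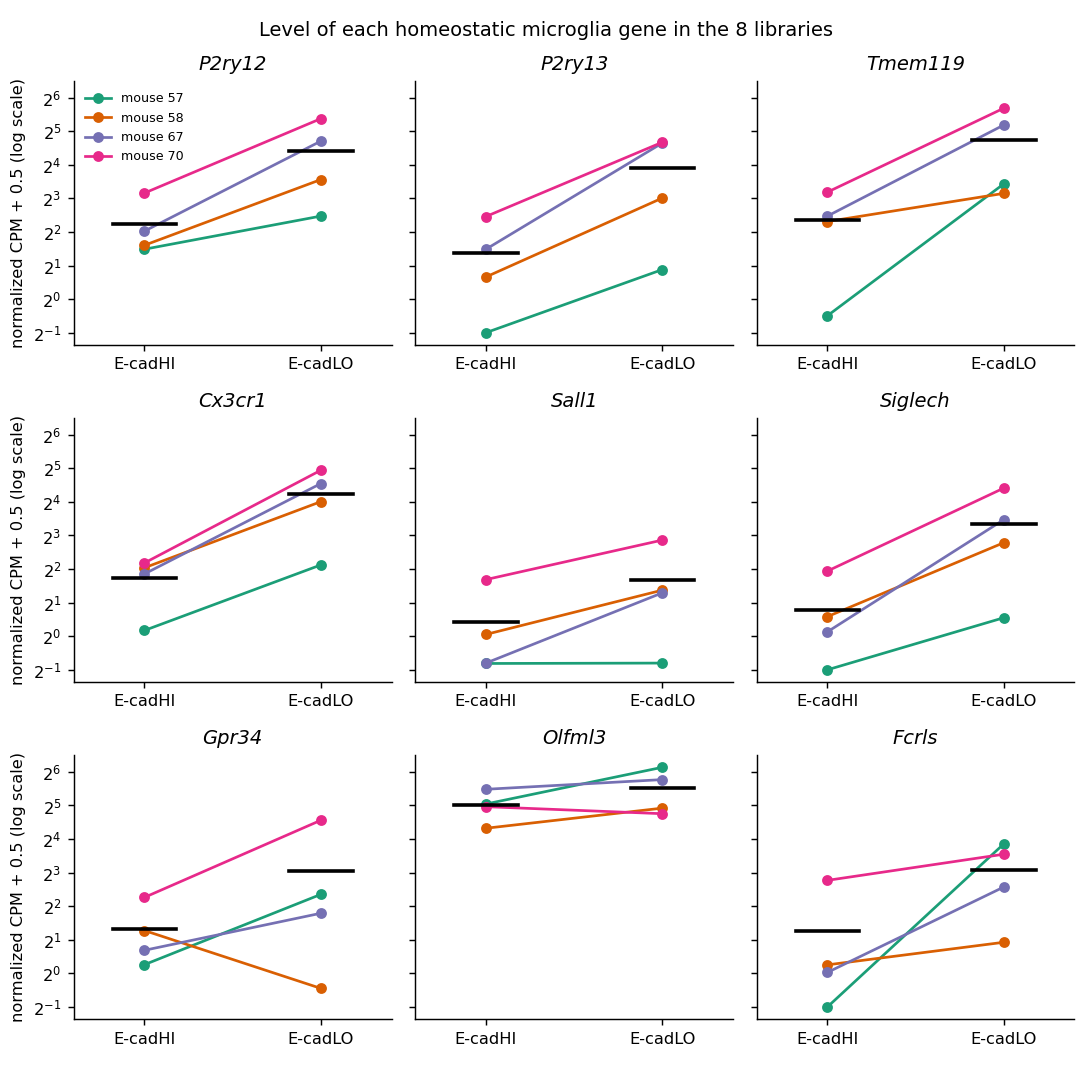
Normalized CPM plus 0.5 on a log2 axis (y) in the E-cadHI and E-cadLO libraries (x) for each of the 9 genes, with the libraries of 1 mouse joined by a line and the arithmetic mean of 4 libraries as a black bar. Lines rise in most panels, except for Gpr34 in mouse 58 and Olfml3 in mouse 70, and the groups overlap in all 9 panels.

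Among the receptors for nucleotides and chemokine, P2ry12, the ADP receptor that steers microglial processes to injury, stood at 2.3, 2.54, 3.57 and 8.43 CPM in the E-cadHI libraries of mice 57, 58, 67 and 70, and at 5.05, 11.3, 25.6 and 41 CPM in their E-cadLO libraries. Every mouse was higher in E-cadLO, by 2.2, 4.45, 7.19 and 4.86 times, but the E-cadLO library of mouse 57 was below the E-cadHI library of mouse 70. The log2 fold change was 2.30 ± 0.68 (SE, n = 4 per group) without a block (adjusted p = 0.282 by edgeR), and 2.12 ± 0.35 with the mouse as a block (adjusted p = 0.049).

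P2ry13, a related ADP receptor whose gene is next to P2ry12, had 0 counts in the E-cadHI library of mouse 57 and 1.08, 2.3 and 5 CPM in the other three. Its E-cadLO levels were 1.34, 7.56, 24.6 and 25 CPM. All 4 mice were higher in E-cadLO, by at least 6.4 times in mouse 57, taken against a floor of 3 counts, and by 7.03, 10.7 and 5 times in mice 58, 67 and 70. The fitted difference was 2.81 ± 1.18 on the log2 scale (adjusted p = 0.341 by edgeR), and 3.08 ± 0.51 with the block (adjusted p = 0.051), just outside the threshold.

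Cx3cr1, the receptor for the neuronal chemokine fractalkine, had the smallest adjusted p of the 9 in each of these fits. Its level was 0.627, 3.61, 3.12 and 4.04 CPM in E-cadHI and 3.86, 15.6, 22.9 and 30.3 CPM in E-cadLO, in the order of mice 57, 58, 67 and 70. Only the mouse 57 E-cadLO library reached down into the E-cadHI range, and the within-mouse ratios of 6.16, 4.32, 7.33 and 7.51 were the most even of the 9 genes, with an SD of 0.44 on the log2 scale. The log2 fold change was 2.67 ± 0.70 (adjusted p = 0.262 by edgeR) and 2.63 ± 0.31 with the block (adjusted p = 0.0239). Csrnp1, which lies in the same span on the same strand, had 64, 118, 18 and 40 counts in the E-cadHI libraries of mice 57, 58, 67 and 70 and 396, 151, 218 and 88 in their E-cadLO libraries. It was thus higher in E-cadLO in 4 of 4 mice, as Cx3cr1 was, although the E-cadLO library of mouse 57 had its most counts and only 52 of Cx3cr1. Its part in the Cx3cr1 counts was not tested.

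Gpr34, a receptor for lysophosphatidylserine, behaved differently in mouse 58. Its levels were 0.697, 1.92, 1.11 and 4.3 CPM in E-cadHI and 4.61, 0.233, 2.96 and 23.1 CPM in E-cadLO. It was higher in E-cadLO in 3 mice (6.61, 2.66 and 5.38 times in mice 57, 67 and 70) but in mouse 58 had 25 counts in E-cadHI against 2 in E-cadLO, a ratio of 0.121 with a 95% counting interval of 0.0139 to 0.486. The difference of 1.95 ± 1.09 without a block (adjusted p = 0.429 by edgeR) and 1.32 ± 0.90 with it (adjusted p = 0.43) was within the spread. Cask, which contains Gpr34 on the opposite strand, had 303 to 876 counts and was lower in E-cadLO in 4 of 4 mice. Gpr34 was lower there in mouse 58 alone. The part of Cask in the Gpr34 counts was not tested.

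The surface markers followed. Tmem119, a membrane protein used to tell microglia from blood-borne macrophages, stood at 0.209, 4.46, 5.05 and 8.6 CPM in E-cadHI and at 10.3, 8.37, 35.9 and 51 CPM in E-cadLO. The E-cadHI library of mouse 57 held only 3 counts of it, so the ratio of 49 in that mouse has a 95% counting interval of 16.4 to 241, while mice 58, 67 and 70 gave 1.88, 7.11 and 5.93. The groups overlapped by one pair of values, with the mouse 58 E-cadLO library (8.37 CPM) just under the mouse 70 E-cadHI library (8.6 CPM). The log2 fold change was 2.53 ± 0.90 (adjusted p = 0.303 by edgeR), and 2.69 ± 0.61 with the block (adjusted p = 0.0996).

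Siglech, a sialic acid-binding lectin of microglia that plasmacytoid dendritic cells also carry, had the largest fitted difference of the 9. It had 0 counts in the mouse 57 E-cadHI library and 0.999, 0.595 and 3.34 CPM in those of mice 58, 67 and 70, against 0.966, 6.4, 10.6 and 20.8 CPM in E-cadLO. All 4 mice were higher in E-cadLO, by at least 4.62 times in mouse 57 and by 6.4, 17.9 and 6.22 times in the others. The difference was 2.98 ± 1.19 (adjusted p = 0.327 by edgeR) and 3.32 ± 0.58 with the block (adjusted p = 0.0557).

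Fcrls, an Fc receptor-like protein of mouse microglia, was the least even of the 9 between mice. It had 0 counts, 0.692, 0.52 and 6.32 CPM in E-cadHI and 14, 1.4, 5.45 and 11.2 CPM in E-cadLO. Mouse 57 went from 0 to 188 counts, at least 66.8 times higher, while mice 58 and 70 differed by 2.02 and 1.77 times and mouse 67 by 10.5 times. The difference was 2.10 ± 1.24 (adjusted p = 0.449 by edgeR) and 2.72 ± 1.16 with the block (adjusted p = 0.251), and the fit without a block gave 1.25 without mouse 57 and 4.11 without mouse 70. Siglech and Fcrls belong to multigene families, so that reads from close relatives may be split or shared between them and their copies.

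Sall1, the transcription factor that holds the microglial program, was scarce. It had 1, 7, 1 and 31 counts in the E-cadHI libraries of mice 57, 58, 67 and 70 and 1, 18, 29 and 97 in E-cadLO, or 0.0697, 0.538, 0.0743 and 2.72 against 0.0743, 2.09, 1.95 and 6.78 CPM. Mouse 57 was thus even, at 1 count in each fraction, and the ratio of 26.3 in mouse 67 rests on 1 count against 29 (95% counting interval 4.35 to 1073). Mice 58 and 70 gave 3.89 and 2.49 times. The difference of 1.69 ± 1.30 (adjusted p = 0.535 by edgeR) was within the spread, and was 2.04 ± 0.76 with the block (adjusted p = 0.216).

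Olfml3, a secreted olfactomedin-domain protein, did not follow the other eight. It had the highest level per kilobase of exon of the 9 in every E-cadHI library, stood there at 32.5, 19.5, 44.2 and 30.7 CPM, and was at 69.9, 29.8, 54.1 and 26.5 CPM in E-cadLO. Mice 57, 58 and 67 were higher in E-cadLO by 2.15, 1.53 and 1.22 times, and mouse 70, which held the most P2ry12 in both fractions, was lower at 0.862 times. The log2 fold change was 0.51 ± 0.36 (adjusted p = 0.509 by edgeR) and 0.45 ± 0.24 with the block (adjusted p = 0.327). Whether its reads came from microglia was not tested.

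**Figure D2:**
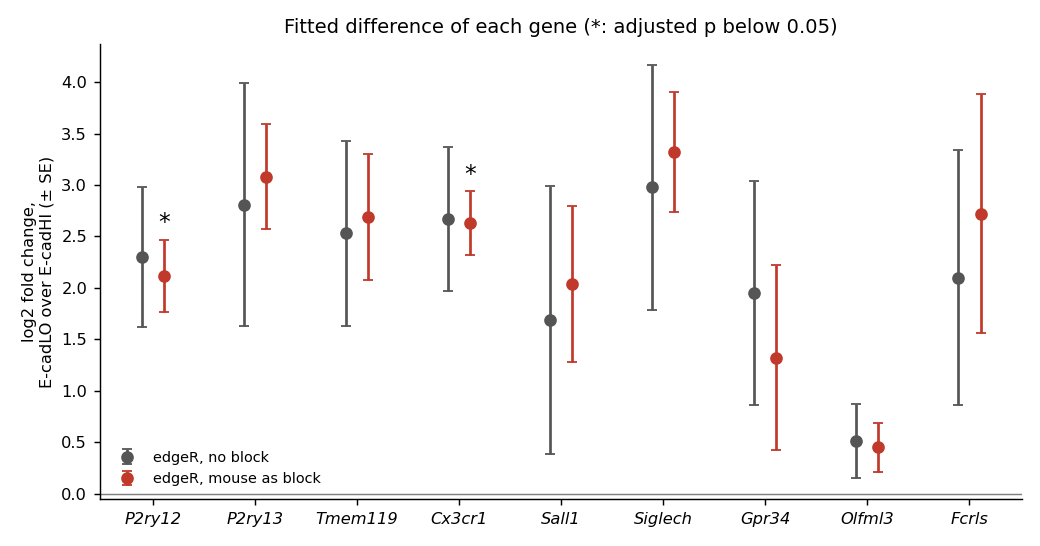
Fitted log2 fold change, E-cadLO over E-cadHI, with its standard error (y) for each of the 9 genes (x), from edgeR without a block (grey) and with the mouse as a block (red). Asterisks mark an adjusted p under 0.05, which Cx3cr1 and P2ry12 reached with the block, and Olfml3 lies nearest 0 at 0.51 and 0.45.

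Within mice, 7 of the 9 genes were higher in E-cadLO in 4 of 4 mice, while 16.8% of tested genes were. The exceptions were Gpr34 (mouse 58) and Olfml3 (mouse 70), and the count includes Sall1, which was even in mouse 57. None of the 9 had all E-cadLO libraries above all E-cadHI libraries, against 3.9% of tested genes. The median within-mouse log2 ratio over the 9 genes was 1.88, 1.32, 2.68 and 2.21 in mice 57, 58, 67 and 70, beside medians of 0.00 to 0.07 over all tested genes in the same mice. Mouse 57 had the widest spread between genes, from 0.01 for Sall1 to 4.85 for Fcrls. In the fits, the median log2 fold change of the 9 was 2.30 without a block and 2.63 with it, against 0.06 and 0.03 over all tested genes.

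**Figure D3:**
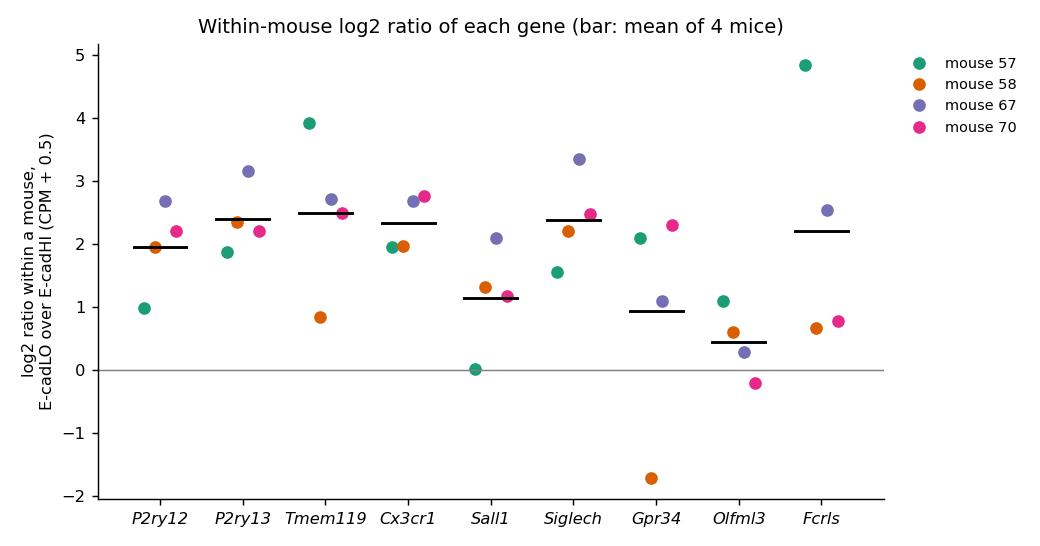
Log2 ratio of normalized CPM plus 0.5, E-cadLO over E-cadHI within each mouse (y), for each of the 9 genes (x), with points coloured by mouse and the mean of 4 mice as a bar. P2ry12, P2ry13, Tmem119, Cx3cr1, Siglech and Fcrls lie above 0 in all 4 mice, with Fcrls spread from 0.67 to 4.85. Sall1 does too, but at only 0.01 in mouse 57. Gpr34 runs from -1.72 to 2.30 and Olfml3 from -0.21 to 1.09.

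Which mice were left out decided the calls made with the block. Without mouse 57 the block fit called 449 genes and 5 of the 9 (P2ry12, P2ry13, Tmem119, Cx3cr1 and Siglech). It called 66 genes without mouse 58, with Cx3cr1 alone of the 9. Without mouse 67 it called 0 genes in all, and without mouse 70 it called 2, with 0 of the 9 in either.

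Summed over the 9 genes, the level was 36.4, 35.3, 60.6 and 73.5 CPM in the E-cadHI libraries of mice 57, 58, 67 and 70 and 110.0, 82.7, 184 and 236 CPM in E-cadLO. The lowest E-cadLO library was above the highest E-cadHI library, and the within-mouse folds of 3.02, 2.34, 3.04 and 3.21 were close to each other. The mean log2 ratio was 1.44 ± 0.22 (SD, n = 4 mice), with p = 0.0286 in an exact two-sided permutation test of 4 against 4 libraries and p = 0.13 in an exact sign-flip test over mice, each the smallest value that its design allows. Olfml3 made up much of these sums. Without it the other eight summed to 3.9, 15.8, 16.4 and 42.8 CPM in E-cadHI and 40.1, 52.9, 130.1 and 209 CPM in E-cadLO, folds of 10.3, 3.34, 7.95 and 4.89. The mouse 57 E-cadLO library then lay below the mouse 70 E-cadHI library, and the exact permutation p was 0.0571. Leaving out Cx3cr1 alone also gave an exact permutation p of 0.0571.

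Next, the ratios of the genes to each other were compared. Of the summed counts of the 9, Olfml3 took 89.3%, 55.2%, 73% and 41.8% in the E-cadHI libraries of mice 57, 58, 67 and 70, and 63.5%, 36%, 29.4% and 11.2% in E-cadLO. Its share was lower in E-cadLO in 4 of 4 mice, and the exact 95% binomial intervals, which cover counting error only, did not overlap within any mouse (61.0% to 66.0% against 86.3% to 91.8% in mouse 57, for example). Between groups the ranges overlapped. The log2 ratio of Olfml3 to the sum of the other eight differed by -2.09 ± 0.69 (SD, n = 4 mice), with p = 0.114 in an exact permutation test (0.514 after Benjamini-Hochberg adjustment over the 9 shares) and p = 0.13 in the exact sign-flip test.

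**Figure D4:**
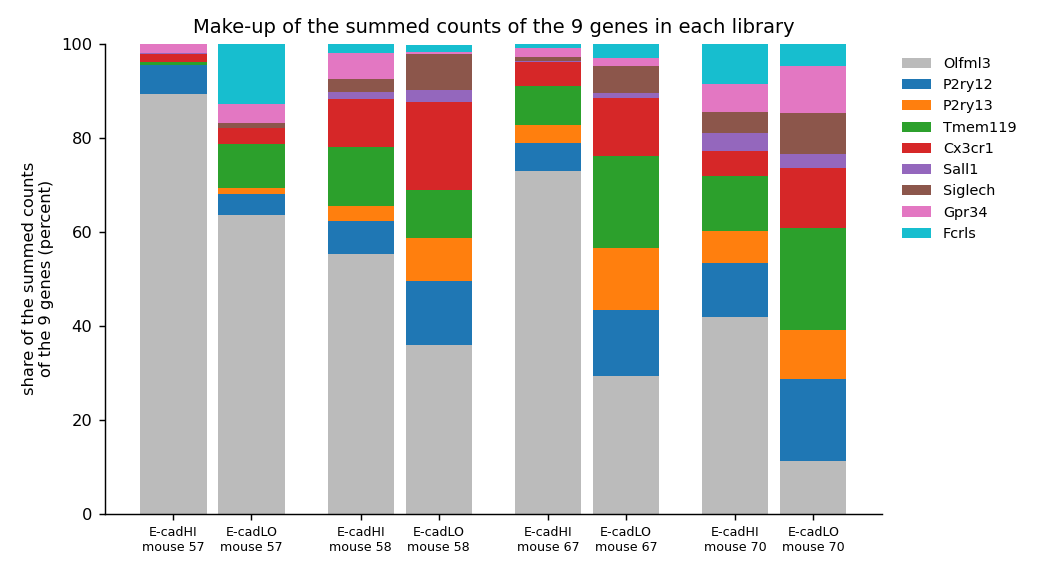
Share of the summed counts of the 9 genes (y, percent) taken by each gene in each library (x), with the E-cadHI and E-cadLO library of a mouse side by side. The Olfml3 share (light grey) runs from 41.8% to 89.3% in E-cadHI and from 11.2% to 63.5% in E-cadLO, and is lower in E-cadLO within every mouse.

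Once Olfml3 was set aside, no share passed the test between the fractions. P2ry12 took 16% to 58.9% of the summed counts of the other eight in E-cadHI and 12.6% to 21.3% in E-cadLO, Tmem119 took 5.36% to 30.9% and 15.8% to 27.6%, and Cx3cr1 took 9.45% to 22.8% and 9.63% to 29.5%. The adjusted p of the 8 shares was 0.686 or more in exact permutation tests. The largest mean differences were in Gpr34 (-1.67 ± 1.52, SD, on the log2 scale) and Sall1 (-1.40 ± 1.25), both toward a lower share in E-cadLO, and Sall1 was lower in 4 of 4 mice, with exact permutation p = 0.0857 before adjustment. With 4 libraries a group, differences of this size could not be separated from the variation between mice.

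The ratios between these genes differed from library to library by more than counting error in places. The ratio of Tmem119 to P2ry12 counts was 0.742 to 1.76 in 6 libraries, but 0.0909 (95% counting interval 0.0178 to 0.29) in the E-cadHI library of mouse 57 and 2.03 (1.51 to 2.75) in its E-cadLO library. The ratio of Fcrls to P2ry12 was 0 to 0.75 in 7 libraries and 2.76 (2.08 to 3.7) in that same E-cadLO library of mouse 57. Gpr34 to P2ry12 was 0.115 to 0.912 in 7 libraries, and 0.0206 (0.00246 to 0.0765) in the E-cadLO library of mouse 58. The adjacent pair P2ry13 and P2ry12 ran from 0 (upper limit 0.118) in the mouse 57 E-cadHI library to 0.958 (0.828 to 1.11) in the mouse 67 E-cadLO library, where it was also above the 0.611 (0.534 to 0.698) of the mouse 70 E-cadLO library. Within mouse 70, the ratio of Fcrls to P2ry12 was 0.75 (0.545 to 1.03) in E-cadHI and 0.273 (0.228 to 0.326) in E-cadLO.

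Per kilobase of exon, which allows genes to be compared, the order of the mean levels differed between fractions. In E-cadHI, Olfml3 led at 5.15 ± 1.64 CPM per kilobase (SD, n = 4), followed by Tmem119 (1.98 ± 1.49), P2ry12 (1.65 ± 1.13), Gpr34 (0.961 ± 0.771), P2ry13 (0.83 ± 0.85), Fcrls (0.807 ± 1.27), Cx3cr1 (0.633 ± 0.339), Siglech (0.364 ± 0.432) and Sall1 (0.162 ± 0.241). In E-cadLO, Tmem119 came first at 11.4 ± 8.93, then P2ry12 (8.14 ± 6.29), Olfml3 (7.32 ± 3.35), P2ry13 (5.78 ± 4.75), Cx3cr1 (4.03 ± 2.5), Gpr34 (3.7 ± 4.99), Fcrls (3.43 ± 2.42), Siglech (2.86 ± 2.47) and Sall1 (0.518 ± 0.542). The ranges of every pair of neighbours in both orders overlapped. Olfml3 had the highest level per kilobase in 6 of 8 libraries and Tmem119 in the other two, the E-cadLO libraries of mice 67 and 70.

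The pattern over libraries separated the genes in the same way. The Pearson correlation of each gene with the mean of the other eight, over the 8 libraries on the log2(CPM + 0.5) scale, was 0.953 for Tmem119, 0.951 for P2ry12, 0.942 for Siglech, 0.928 for P2ry13 and 0.904 for Cx3cr1. It was 0.809 for Sall1, 0.749 for Fcrls and 0.634 for Gpr34, and 0.0496 for Olfml3. Paired libraries share a mouse, so these values describe the 8 libraries only. Among the other tested genes whose pattern was most like the mean of the 9 were Trem2 (0.993), AI593442 (0.991), C5ar1 (0.983), Cd68 (0.982), Hpgds (0.981), B230217C12Rik (0.976), Csf1r (0.974), Rac2 (0.969) and Cxx1c (0.968). Trem2, a lipid-sensing receptor of microglia and macrophages, had 0.209, 1.54, 1.41 and 5.09 CPM in E-cadHI and 4.16, 5.47, 19.9 and 25 CPM in E-cadLO.

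The homeostatic genes were then set beside other myeloid lists. All 14 pan-macrophage genes were tested and had a positive difference, with a median log2 fold change of 2.10 without a block and 2.32 with it. Of these, 4 rose with the block, namely the lysosomal protein Cd68 (1.66 ± 0.24, adjusted p = 0.033 by edgeR), the integrin Itgam (3.57 ± 0.51, 0.033), the tetraspanin Cd53 (2.45 ± 0.36, 0.0338) and the protease Ctss (1.78 ± 0.26, 0.0339). The complement chains C1qb and C1qc, which were among the most abundant, had 2.39 ± 0.45 and 2.58 ± 0.47 (adjusted p = 0.0697 and 0.0647). Ptprc was the one gene of the 14 not higher in 4 of 4 mice.

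The summed level of that list was 18.5 to 419.6 CPM in E-cadHI and 219 to 1377 CPM in E-cadLO. The log2 ratio of the 9 homeostatic genes to it was lower in E-cadLO in 4 of 4 mice, by -0.83 ± 0.75 (SD, exact permutation p = 0.343, adjusted p = 0.514 over 3 lists, exact sign-flip p = 0.13). Without Olfml3 the difference was -0.04 ± 0.48, with 2 of 4 mice on each side (exact permutation p = 0.914). For the 8 genes the log2 ratio ran from -3.19 to -1.69 in E-cadHI and from -3.05 to -2.23 in E-cadLO.

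Of 20 other genes known from homeostatic microglia, 18 were tested, 15 of them with a positive difference, and the median was 1.36 (1.48 with the block). Abundant members that did not pass with the block in edgeR were the protease inhibitor Cst3 (0.93 ± 0.22, adjusted p = 0.116 by edgeR), the matrix protein Sparc (2.71 ± 1.10, 0.236) and the membrane-bending protein Bin1, at -0.24 ± 0.16 (0.434). DESeq2 with the block called 7 of the 20 higher and 0 lower, against 6.77% of all genes called higher in that fit. Cst3, higher in 4 of 4 mice, was among these 7 (adjusted p = 5.7e-04 by DESeq2). The log2 ratio of the 9 genes to the sum of this list differed by 0.31 ± 0.54 (higher in 3 of 4 mice, exact permutation p = 0.6). With each gene counted equally it differed by 0.77 ± 0.16, higher in 4 of 4 mice (exact permutation p = 0.0286, adjusted p = 0.0857). Without Olfml3 the ratio of the sums differed by 1.09 ± 0.69, also higher in 4 of 4 mice (exact permutation p = 0.143, adjusted p = 0.214).

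Of 14 regulators and ligands of microglial identity, 11 were tested. Irf8, a myeloid transcription factor, rose with the block (2.38 ± 0.37, adjusted p = 0.0392 by edgeR), from 0.767 to 5.36 CPM in E-cadHI to 3.27 to 24.6 CPM in E-cadLO. The abundant ones did not pass. Cx3cl1, the ligand of Cx3cr1, stood at 97.6 to 151 CPM in E-cadHI and 71.4 to 199.9 CPM in E-cadLO (log2 fold change -0.10 ± 0.21 with the block, adjusted p = 0.805), and Runx1, Tgfbr2 and Ltbp1 had differences of 0.38 ± 0.23, 0.30 ± 0.37 and 0.35 ± 0.41. Spi1, which encodes PU.1, and the MEF2 genes Mef2a and Mef2c are named here after their values were seen, because PU.1-type and MEF2-type motifs were searched. With the block they had 2.33 ± 0.55 (adjusted p = 0.113 by edgeR), 1.07 ± 0.19 (0.0554) and 1.53 ± 0.34 (0.101), each higher in 4 of 4 mice. DESeq2 with the block called 4 of the 14 higher, against 6.77% of all genes. These were Irf8, Spi1, Mef2a and Mef2c (adjusted p = 3.0e-07, 0.00203, 9.1e-05 and 0.00146 by DESeq2).

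The sum of the disease-associated list, genes that microglia raise around lesions, was higher in E-cadLO in 2 of 4 mice. Its total was 3789 to 8817 CPM in E-cadHI and 2559 to 10667 CPM in E-cadLO, most of it from Spp1 (osteopontin), at 2708 to 7708 and 1115 to 3928 CPM, from Cd9 and from Apoe. Spp1 and Cd9 did not pass (-0.91 ± 0.40, adjusted p = 0.256, and -0.43 ± 0.18, adjusted p = 0.244 with the block by edgeR). Apoe, which carries lipids, and the integrin Itgax rose with the block, by 2.29 ± 0.34 (adjusted p = 0.0362) and 4.14 ± 0.62 (0.038). Lgals3 had 0.71 ± 0.19 (0.145). The log2 ratio of the 9 homeostatic genes to this list was higher in E-cadLO in 4 of 4 mice, by 1.75 ± 0.88 (exact permutation p = 0.0286, adjusted p = 0.0857 over 3 lists), and by 0.72 ± 0.33 (adjusted p = 0.257) when each gene counted equally. Cells other than microglia express Spp1 and Cd9, and their part in this ratio was not tested.

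**Figure D5:**
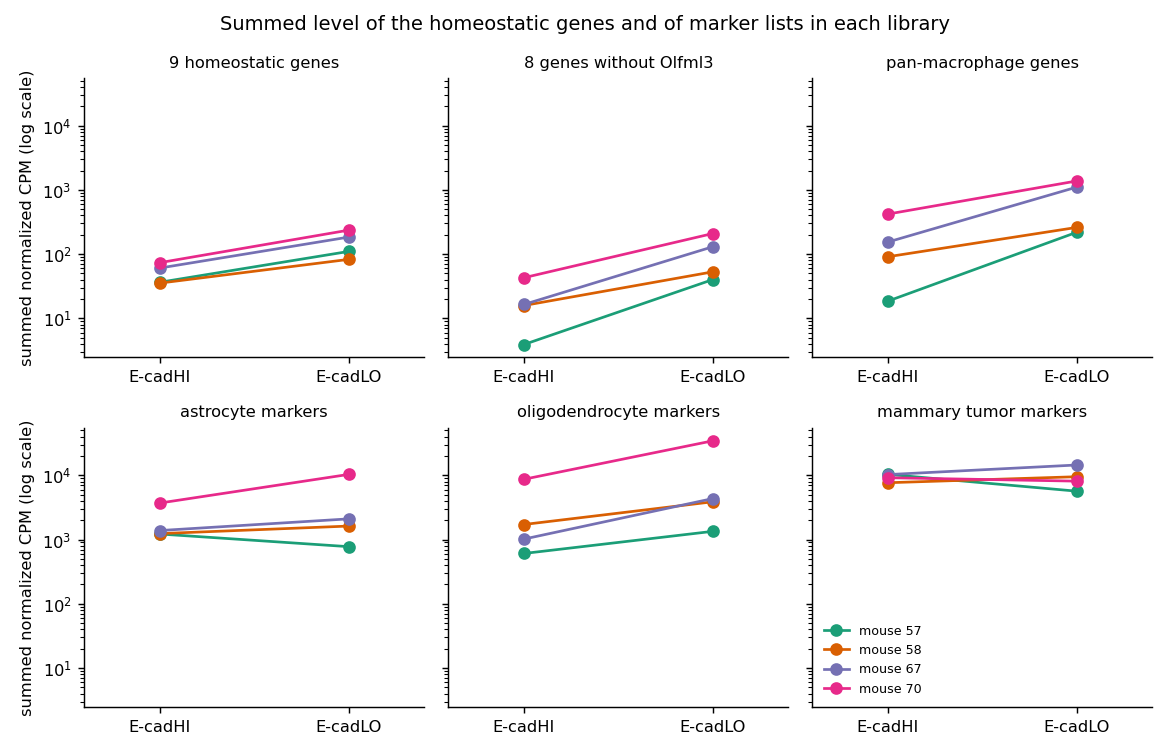
Summed normalized CPM (y, log10 axis) in the E-cadHI and E-cadLO libraries of each mouse (x, lines join a mouse) for the 9 homeostatic genes, the same without Olfml3, and 4 marker lists. The first 3 panels and the oligodendrocyte markers are higher in E-cadLO in every mouse, while the mammary tumor markers differ in direction between mice.

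Markers of other brain cells were higher in E-cadLO for some genes and not for others, with 5 of the 10 genes of the oligodendrocyte, neuron and astrocyte lists each higher in 4 of 4 mice. The 10 oligodendrocyte markers summed to 607 to 8685 CPM in E-cadHI and 1343 to 34514 CPM in E-cadLO and were higher in 4 of 4 mice, and Mbp and Mobp, which encode myelin proteins, rose with the block (2.14 ± 0.28 and 2.19 ± 0.29, adjusted p = 0.0311 for both by edgeR). Cnp on that list was higher in 1 of 4 mice (-0.47 ± 0.45, adjusted p = 0.576). The 10 neuron markers summed to 30.9 to 154 and 49.3 to 525 CPM, also higher in 4 of 4 mice. Each of these 10 had a positive log2 fold change without a block, and Snap25 rose with it (2.32 ± 0.38, adjusted p = 0.046 by edgeR). The 10 astrocyte markers summed to 1220.0 to 3706 and 775 to 10349.8 CPM and were lower in mouse 57, where the log2 ratio of Aldoc, the list's highest gene, was -3.02. All 10 had a positive log2 fold change without a block, and Gfap, Slc1a3 and S100b rose with it (2.0 ± 0.30, 1.96 ± 0.29 and 1.84 ± 0.30, adjusted p = 0.036, 0.0363 and 0.0479 by edgeR). The part of these cells in the difference of the homeostatic genes was not tested. The highest value of each of these 3 sums was the E-cadLO library of mouse 70, which was also the highest for P2ry12, Tmem119, Cx3cr1 and Siglech.

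The markers of other myeloid cells were less uniform. The 10 border-associated macrophage markers summed to 127 to 293 CPM in E-cadHI and 80.8 to 165 CPM in E-cadLO, higher in 1 of 4 mice. Of the 7 tested, 5 had a positive log2 fold change (median 1.63, and 1.82 with the block), Ms4a7 and Clec4n were higher in 4 of 4 mice, and Cbr2, the highest of them, was at a mean of 197 CPM in E-cadHI and 74.8 CPM in E-cadLO (-1.43 ± 0.39 with the block, adjusted p = 0.145 by edgeR and 0.00329 by DESeq2). The 8 monocyte markers summed to 136 to 189 and 154 to 271 CPM, higher in 3 of 4. The 8 neutrophil markers summed to 15.9 to 25.3 and 9.89 to 26.8 CPM, with Ngp at 0 in all E-cadHI libraries. The 8 plasmacytoid dendritic cell markers, a second possible source of Siglech, summed to 229.7 to 317 and 239 to 295 CPM, higher in 1 of 4 mice. Most of that sum was Bst2, at a mean of 205 CPM in E-cadHI and 132 CPM in E-cadLO, and higher in 0 of 4 mice. Of the 6 tested, 5 had a positive log2 fold change (median 0.69, and 0.62 with the block) and 3 were higher in 4 of 4 mice. Cox6a2 on that list rose with the block (3.71 ± 0.47, adjusted p = 0.027 by edgeR). The 8 T and NK cell markers summed to 0.0697 to 2.11 and 0.446 to 21.7 CPM and none was tested. The part of these cells in the homeostatic genes was not tested.

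The E-cadLO library of mouse 57, in which Fcrls, Tmem119 and Olfml3 were high beside P2ry13 and Siglech, stood apart in stroma. The fibroblast and mural markers summed to 1202 CPM there, against 26.9 to 191 CPM in the other E-cadLO libraries and 9.34 to 64.6 CPM in E-cadHI, and the part of these cells in the ratios of that library was not tested. Endothelial markers summed to 42.7 to 78.1 CPM in E-cadHI and 63.6 to 115 CPM in E-cadLO, higher in 4 of 4 mice. With the block, 0 of 9 tested were called by edgeR and 1, Tek, by DESeq2 (adjusted p = 0.00219, and 0.03 without the block).

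The tumor markers did not follow the homeostatic genes. The 10 mammary epithelial markers summed to 7675 to 10363 CPM in E-cadHI and 5669 to 14500.4 CPM in E-cadLO, higher in 2 of 4 mice, and 0 of 10 were called in edgeR with or without the block (median log2 fold change -0.24). DESeq2 with the block called 1 of the 10, lower in E-cadLO. Epcam was higher in E-cadLO in 0 of 4 mice (-0.89 ± 0.35 with the block, adjusted p = 0.225 by edgeR). Krt19 was higher in 1 of 4 mice (-0.39 ± 0.29, adjusted p = 0.466), and Krt18 and Krt8 were each higher in 2 of 4. Krt18 and Krt8, keratins of simple epithelium, were each at 1922 CPM or more in every library. The 9 homeostatic genes summed to at most 236 CPM in the same libraries, below either keratin alone.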

How the data were processed

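mRNA was measured in 8 libraries, 1 E-cadHI and 1 E-cadLO fraction from each of mice 57, 58, 67 and 70, grouped by their labels. The authors deposited raw counts per gene in 1 table. Per the labels and the study's methods, single reads were aligned to GRCm38 with HISAT2 2.1.0, and counting is named Icount in one source and HTSeq in the other. Whether it used strand is not given in the sources used here, so reads of genes that overlap on opposite strands may be shared. Of 32259 rows, 365 had no gene identifier (0.0636% to 0.0954% of counts) and were left out. The other 31894 genes gave totals of 9102781 to 15769200 counts. Intervals and the floor of 3 counts cover counting error only.

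The groups were compared with the edgeR 4.0.16 quasi-likelihood test (R 4.3.3, TMM scaling, filterByExpr, Benjamini-Hochberg over 13598 genes, threshold 0.05), without pairing, since the study's methods name DESeq2 and state no pairing. The fractions of 1 animal share its number, and the deviations of same-mouse libraries correlated at 0.248 to 0.692, against at most 0.144 for different mice, so the fit with the mouse as replicate block is printed beside the results. DESeq2 1.42.0, other scalings, filters and left-out mice were alternatives. Log2 ratios of sums and of lists used normalized CPM and a pseudocount of 0.5 per gene. For the tested shares, 0.5 was added to the gene's normalized CPM and 0.5 to the sum of the others. Printed share percentages and their intervals are from raw counts. Exact permutation and sign-flip tests were used (scipy 1.17.1 for intervals). Standard errors of edgeR were taken as the log2 fold change over the root of F. Exon lengths and positions are from GENCODE M21, and promoters from RefSeq (GRCm38.p6). All 9 genes are named, and of each other list at most the 4 highest by mean level and 4 called, beside the 10 genes most like the 9 in pattern, except for an item that is not reported here. The genes and lists were chosen with earlier results of these data known. No 2 libraries agreed within sampling noise.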

Additional observations from a re-analysis of the deposited data

Results flagged for a closer look

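One value stood far from the other three of its group by Dixon's criterion. Cx3cr1 was at 0.627 normalized CPM (9 counts) in the E-cadHI library of mouse 57, against 3.12 to 4.04 CPM in the other E-cadHI libraries. This library was also the lowest of the E-cadHI group for the other genes except Olfml3. In all, 53 groups of 4 values were examined, and chance marks about 1 in 20 groups, or 2.65 of 53, so 1 is no more than chance gives. Without mouse 57 the log2 fold change of Cx3cr1 was 2.65 without a block and 2.61 with the mouse as a block.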

How the results depend on the processing

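All 9 fitted log2 fold changes stayed above 0 in all 144 alternative fits of single genes that gave an adjusted p, with 25 of these past the threshold where the fit without a block was not, among DESeq2, blocked and left-out settings. The number of genes called was 0, and 416 by DESeq2, 23 with no filter on low counts, 3 with at least 10 counts in every library, 99 with the mouse as replicate block, 1211 by DESeq2 with that block, 1602 with the block and no filter, and 100 with the block and DESeq2 size factors (the last pair were chosen after seeing the data). Of the 9 genes 3, 0, 0, 2, 6, 6 and 2 were called in the same settings. With one mouse left out, 0 to 449 genes and 0 to 5 of the 9 were called, all by blocked fits. Of the 9, the median log2 fold change over those tested stayed between 2.09 and 2.82 with a mouse left out. It was 1.45 where at least 10 counts in every library left only P2ry12 and Olfml3. The log2 ratio of the sums was 1.44, and 1.38 to 1.55 with a mouse left out, where 3 against 3 libraries cannot give an exact permutation p under 0.1. It was 1.82 as a mean of ratios, 2.23 without Olfml3, 1.35 without Cx3cr1 and 1.44 paired by mouse (replicate block), each past 0.05 (exact p = 0.0857, 0.0571, 0.0571 and 0.13). Shares that were not called turned sign without Olfml3 in the sum, to -0.78 for P2ry12, -0.07 for P2ry13, -2.0e-04 for Tmem119, -0.16 for Cx3cr1, -0.09 for Siglech and -0.21 for Fcrls. Fcrls also turned with a pseudocount of 2 (-0.06), and ranged from -0.18 to 1.30 with a mouse left out, Sall1 from -0.65 to 0.04 and Gpr34 from -0.99 to 0.24. None of the ratios to other lists was called in any alternative. Sall1 was not tested without mouse 70. Few counts limit Sall1 and the E-cadHI library of mouse 57, where 3 genes had 0 counts although its total was 14922074. The causes were not tested.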
